A study of Mus musculus with 24 samples.

Results

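Cytochrome P450 enzymes of families 1 to 3 are the heme-containing oxidases of the liver that act on drugs, pollutants, steroids and fatty acids. They sit in the endoplasmic reticulum of hepatocytes, take electrons from the reductase Por and from cytochrome b5, and many are induced through the receptors Ahr, Nr1i2 (PXR) and Nr1i3 (CAR). In mouse liver several members are known to be made mostly in one sex, under the control of the pulses of growth hormone, and several are made mostly around the central vein of the lobule.

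The members were all genes of the mouse FFD count table whose symbol is Cyp, then 1, 2 or 3, then 1 letter, then digits, other than -ps pseudogenes, that were counted at least once in 12 or more of the 24 libraries. Of 58 gene names of this form, 48 met the count rule, among 17913 genes tested and 56205 in the table. Just inside the rule were Cyp3a57, Cyp2t4 and Cyp2b13, with a count in 18, 19 and 20 libraries, and just outside was Cyp2j8 with a count in 10. The 48 members fell into 15 subfamilies, of which Cyp2c had 13 members, Cyp2d had 8, Cyp3a had 7 and Cyp2a had 4. The rule did not use the diet or any difference between libraries.

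The data were counts per gene from poly(A) RNA of whole liver of C57BL/6J mice. FFD_mouse libraries (n = 12) came from mice fed for 20 weeks a fat-rich diet that also held fructose, cholesterol and palm oil, and FFD_Ctrl_mouse libraries (n = 12) from mice fed for as long its control diet, so both groups shared the strain and the time on diet, and the labels name no genetic change in either. A level in whole liver averages over all of its cell types. The design text gives 6 animals per diet and sex, but no library's label gives its sex. Library totals ranged from 14468418 to 22112552 counts.

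Apart from the diet, the libraries formed 2 sets by their counts of Xist, the RNA that coats the inactive X chromosome. The high-Xist set, replicates 1 to 6 of each diet, had 2664 to 6285 Xist counts and 0 counts of Ddx3y, a gene of the Y chromosome. The low-Xist set, replicates 7 to 12 of each diet, had 0 to 3 Xist counts and 448 to 1016 of Ddx3y. The limit between them was set at 1000 Xist counts. Each set held 6 libraries per diet. The sets are not labelled conditions, and no test of a level between them was made, but the effect of the diet was fitted within each set and its difference between the sets was tested. Control replicate 10, of the low-Xist set, stood apart with the smallest total and the smallest scaling factor, 0.679 against up to 1.34 in the others. The scaling factors also split by diet in the low-Xist set, at 1.12 to 1.34 on FFD and 0.679 to 0.956 on the control diet. In the high-Xist set they were 0.994 to 1.06 and 0.892 to 1.01. Scaling and diet thus went together in the low-Xist set, with or without control replicate 10.

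Levels are given as CPM, the counts of a gene per 1e6 counts of its library after TMM scaling in edgeR. Statements on whether libraries overlapped are on this TMM scale and need not hold with library totals. Calls come from the quasi-likelihood test of edgeR. A gene was called higher or lower on FFD where its log2 fold change lay beyond 0.5 in either direction and its p, after Benjamini-Hochberg adjustment over all 17913 genes, was no more than 0.01. SE is the standard error of the log2 fold change.

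Over all 24 libraries, 4 of the 48 members were called higher on FFD and 6 lower, and the largest called log2 fold change was that of Cyp3a11, 1.76, with means that differed 3.39-fold. Of all genes tested, 13.2% were called higher and 4.99% lower, so the share of members called lower, 12.5%, was above that of all genes and the share called higher, 8.33%, was below it. Log2 fold changes were below 0 for 39 members and above 0 for 9, and their median over members was -0.40, against -0.03 over all genes. With a term for the set of libraries, 3 members were called higher and 15 lower, against 13.5% and 5.92% of all genes. Within the 12 libraries of the high-Xist set, 2 members were called higher and 7 lower, where 2.9% and 0.882% of all genes were called. Within the 12 libraries of the low-Xist set, 11 members were called higher and 21 lower, where 14.4% and 7.99% of all genes were called.

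The diet effect itself differed between the sets for 13 members (interaction of diet and set, edgeR, adjusted p at most 0.01). For 4 members it was more positive in the low-Xist set, a direction called for 2.58% of all genes, and for 9 it was more negative there, a direction called for 1.48%. Only Cyp2c55 was called higher in both sets, Cyp2c40 and Cyp2c68 were called lower in both, and Cyp2a4, Cyp2b9, Cyp2c50 and Cyp3a44 were called in opposite directions. In neither set was a call made for 14 members, among them Cyp1a1, Cyp2a5, Cyp2a12 and Cyp3a25. Without control replicate 10, all 32 calls of the low-Xist set, all 13 interaction calls and all 10 calls over the 24 libraries were kept, while the fit with a term for the set lost Cyp2c70 and Cyp2e1.

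**Figure D1:**
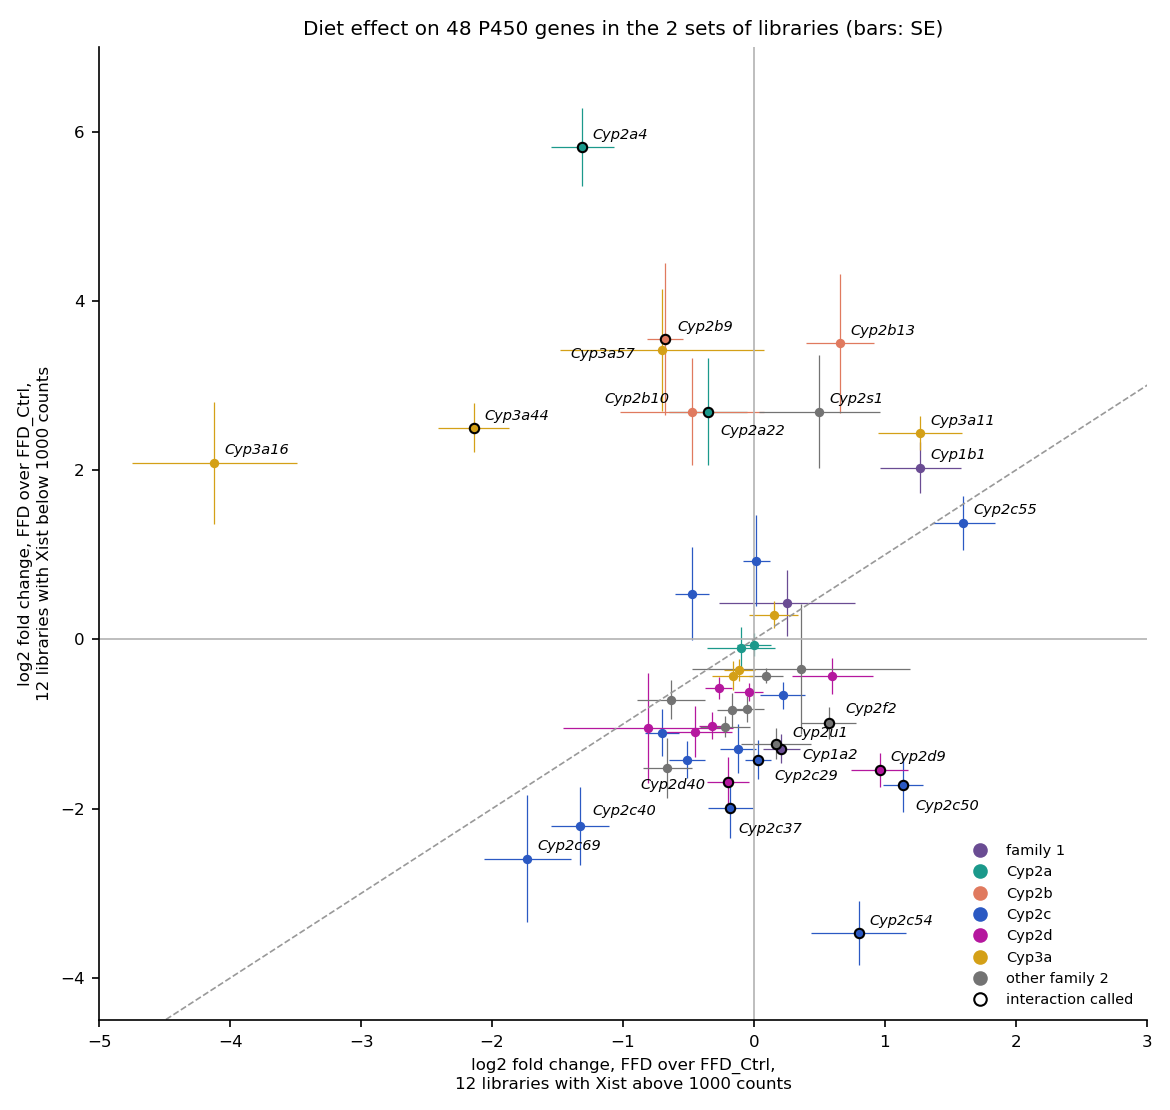
Each point is 1 of the 48 members, with its log2 fold change (FFD over FFD_Ctrl) in the 12 libraries of the high-Xist set on the x axis and in the 12 of the low-Xist set on the y axis, bars giving the SE, colours the subfamily and black rims the 13 members with a called interaction. Points on the dashed line have equal changes in both sets. Cyp2a4, Cyp2b9 and Cyp3a44 lie at the upper left, Cyp2c50, Cyp2c54 and Cyp2d9 at the lower right, and Cyp2c55 near the line. For Cyp3a16 and Cyp3a57 the y value rests on at most 2 counts per control library.

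The members lie in gene clusters that arose by repeated duplication, and neighbours can be almost alike in sequence, which bears on how their reads were counted. In GRCm38 the Cyp2c members lie at chr19:39007019-44029208, the Cyp2d members at chr15:82370527-82794294, the Cyp2a members at chr7:26307169-27037375, the Cyp2b members at chr7:25897620-26210661 and the Cyp3a members at chr5:137892932-146113287, and all 48 are annotated as protein-coding. Of the windows of 51 bases of the longest coding transcript of Cyp2c40, 71.5% also occur in another gene. This share was 54.3% for Cyp2c69, 52.1% for Cyp2c67, 42.5% for Cyp2c68, 40% for Cyp2a5, 39.9% for Cyp2d10, 37.1% for Cyp2a4, 36.4% for Cyp2d11 and 30.1% for Cyp2c50. It was 0 for Cyp1b1, Cyp2f2, Cyp2j9, Cyp2r1 and Cyp2s1. How the counting treated reads that match several genes is not given in the sources used here, so the values of the genes with high shares are uncertain as to which copy they belong to.

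The likeness extends to the promoters. RefSeq gives a promoter window for 41 of the 48 members in GRCm38.p6, the build that the submitters' processing notes name as mm10. The stretch from 250 to 51 bases before the start site is shown for 3 pairs of close relatives whose levels are compared in the results, so that the copies can be read side by side, with the bases that differ between the copies of a pair in capitals and each stretch written in the direction of its gene. The Cyp2b9 stretch is at chr7:26173159-26173358 (plus strand) and the Cyp2b13 stretch at chr7:26061245-26061444 (plus strand), and 198 of 200 aligned bases were identical.
Cyp2b9: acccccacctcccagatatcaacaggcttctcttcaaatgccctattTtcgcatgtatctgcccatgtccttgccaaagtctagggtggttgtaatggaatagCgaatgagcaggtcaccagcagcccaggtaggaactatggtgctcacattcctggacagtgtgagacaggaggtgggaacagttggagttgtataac
Cyp2b13: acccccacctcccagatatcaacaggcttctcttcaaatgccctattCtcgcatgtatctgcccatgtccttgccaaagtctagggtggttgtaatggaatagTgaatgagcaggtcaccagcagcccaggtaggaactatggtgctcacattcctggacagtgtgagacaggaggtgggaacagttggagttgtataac
The Cyp2a4 stretch is at chr7:26306942-26307141 (plus strand) and the Cyp2a5 stretch at chr7:26835089-26835288 (plus strand), and 196 of 199 aligned bases were identical.
Cyp2a4: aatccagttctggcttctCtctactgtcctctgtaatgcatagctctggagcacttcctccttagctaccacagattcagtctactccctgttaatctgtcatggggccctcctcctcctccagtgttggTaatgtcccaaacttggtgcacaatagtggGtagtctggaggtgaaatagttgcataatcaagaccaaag
Cyp2a5: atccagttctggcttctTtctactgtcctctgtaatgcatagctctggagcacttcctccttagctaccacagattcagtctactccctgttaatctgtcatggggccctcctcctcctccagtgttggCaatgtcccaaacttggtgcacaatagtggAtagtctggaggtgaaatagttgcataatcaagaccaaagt
The Cyp3a16 stretch is at chr5:145469774-145469973 (minus strand) and the Cyp3a44 stretch at chr5:145805925-145806124 (minus strand), and 189 of 196 aligned bases were identical.
Cyp3a16: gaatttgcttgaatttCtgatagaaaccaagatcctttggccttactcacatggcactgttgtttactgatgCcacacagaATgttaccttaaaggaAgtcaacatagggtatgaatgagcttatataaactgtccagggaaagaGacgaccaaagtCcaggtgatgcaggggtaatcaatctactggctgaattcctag
Cyp3a44: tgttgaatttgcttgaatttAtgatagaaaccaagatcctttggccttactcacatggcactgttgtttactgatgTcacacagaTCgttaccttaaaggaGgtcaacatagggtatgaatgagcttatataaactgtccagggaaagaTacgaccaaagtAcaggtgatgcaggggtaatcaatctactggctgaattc

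In the windows of 250 bases, searched on both strands, the nuclear receptor core AGGTCA was found in 13 of the 41 members, Cyp3a11, Cyp3a44, Cyp2b9 and Cyp2b13 among them, and in 14% of all 32851 windows. The TATA box TATAAA was found in 21 members, Cyp2a4, Cyp2a5, Cyp2d9 and Cyp2e1 among them, and in 12.4% of all windows. The letters ATCAAT, the core bound by Onecut factors, were found in 9 members, Cyp2c50, Cyp2c67, Cyp3a16 and Cyp3a44 among them, and in 6.72% of all windows. The core of the Ahr response element, GCGTG, was found in 5 members, Cyp1a1 and Cyp1b1 among them, and in 28.2% of all windows. TTCNNNGAA, the letters of a STAT site, were in none of the 41 windows of the members and in 7.02% of all windows. No string contains another.

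Cyp3a11, the mouse counterpart of the main human drug-oxidizing CYP3A enzyme and a target of PXR, had the largest log2 fold change of the members called over the 24 libraries. Its level was 264 to 1288 CPM on the control diet (median 433) and 1511 to 2812 CPM on FFD (median 1858). All 12 FFD libraries lay above all 12 control libraries. On the log2 scale the change was 1.76 (SE 0.25, edgeR adjusted p = 7.71e-06). It was 2.44 (SE 0.20, adjusted p = 1.65e-06) in the low-Xist set and 1.27 (SE 0.32, adjusted p = 0.016, not called) in the high-Xist set, and the interaction was not called (1.16, SE 0.40, adjusted p = 0.0636). Of its transcript windows, 14% occur in other genes, and Cyp3a41a shared the most of them, 5.97%.

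Cyp2c55, an arachidonic acid hydroxylase that PXR and CAR ligands are known to induce, was called higher in both sets. It had 0.395 to 2.07 CPM on the control diet (median 1.29) and 2.49 to 5.45 CPM on FFD (median 3.35). No FFD library overlapped a control library. Its change on the log2 scale was 1.48 (SE 0.21, edgeR adjusted p = 8.14e-06), with 1.60 (SE 0.24) in the high-Xist set and 1.38 (SE 0.32) in the low-Xist set. The interaction was -0.23 (SE 0.41, adjusted p = 0.791). Without control replicate 8, the call in the low-Xist set was lost.

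Of the Ahr-regulated family 1, Cyp1b1 rose, while the classic Ahr target Cyp1a1 had at most 19 counts in a library. Cyp1b1, known for oxidizing steroids and polycyclic hydrocarbons and expressed largely outside hepatocytes, had 0.246 to 2.32 CPM on the control diet (median 1.11) and 1.79 to 6.82 CPM on FFD (median 3.32). In each set every FFD library was above every control library. The log2 fold change was 1.73 (SE 0.27, edgeR adjusted p = 2.55e-05), and within the sets it was 1.27 (SE 0.31, adjusted p = 0.0139, not called) and 2.03 (SE 0.30, adjusted p = 0.000117) in the high-Xist and low-Xist sets.

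Markers of other cell types moved with it. Of the 8 markers of stellate cells and myofibroblasts, 6 were called higher on FFD and none lower, with a summed level of 131 to 422 CPM on the control diet and 357 to 926 on FFD. Of the 8 macrophage markers, 7 were called higher, with 168 to 732 CPM on the control diet and 739 to 1593 on FFD, and of 5 cholangiocyte markers 4 were called higher, with 27.3 to 131 and 31.6 to 881 CPM. None of these markers was at 0 in any library. Their part in the rise of Cyp1b1 was not tested. In whole liver, fewer or more cells of a type and less or more RNA per cell cannot be told apart.

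Cyp1a1 had 0.0587 to 0.691 CPM on the control diet (median 0.368) and 0.0533 to 0.841 on FFD (median 0.468), at 1 to 19 counts per library, and its log2 fold change of 0.37 (SE 0.35) was not called. Its neighbour Cyp1a2, the hepatocyte enzyme for caffeine and aromatic amines, was abundant and was called lower in 1 set. Among the low-Xist libraries it had 225 to 382 CPM on the control diet (median 313) and 84.6 to 172 on FFD (median 123), and no libraries overlapped. Its log2 fold change there was -1.29 (SE 0.17, edgeR adjusted p = 5.17e-05). Among the high-Xist libraries it had 189 to 233 CPM on the control diet and 142 to 289 on FFD, a log2 fold change of 0.21 (SE 0.14, adjusted p = 0.348). The interaction was -1.51 (SE 0.23, adjusted p = 0.00018).

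Cyp2s1, found mainly in epithelia, was called higher at a very low level. It had 0.0576 to 0.822 CPM on the control diet (median 0.237) and 0.199 to 5.2 on FFD (median 0.787), so that 6 FFD libraries lay above all controls. On the log2 scale the change was 1.60 (SE 0.45, edgeR adjusted p = 0.00597). FFD replicate 9 alone had 123 of its counts against at most 21 in the other 23 libraries, and without that library the log2 fold change was 0.99 and was not called. The same library had the highest level of all 24 for each of the 5 cholangiocyte markers, with 29.4 CPM of Krt7 and 48.1 of Krt19 against at most 5.8 and 7.57 in the others, and the largest scaling factor, 1.34. Their part in the rise of Cyp2s1 was not tested. The call was also lost when control replicate 2, 4, 7, 8, 9 or 12 was left out.

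**Figure D2:**
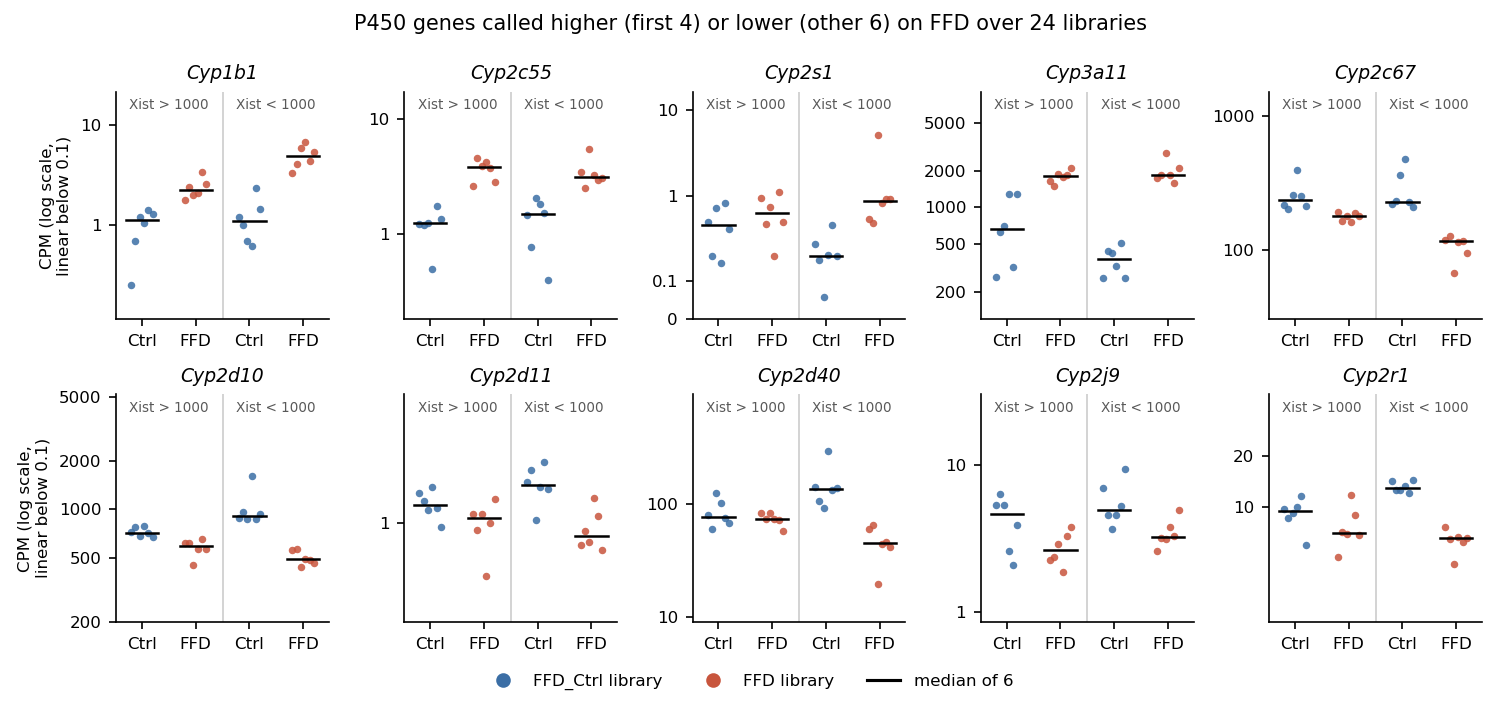
Level in CPM (log axis, linear below 0.1) of the 10 members called over the 24 libraries, in each library, by diet and by set of libraries, with bars at the median of 6 libraries. For Cyp2c55 and Cyp3a11 every FFD library is above every control library. For Cyp2c67 and Cyp2d10 every FFD library is below every control library on the TMM scale, but not with library totals in place of TMM.

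The members of the highest level per kb of exon were Cyp2e1 at 2588 CPM per kb, Cyp2d26 at 577, Cyp2d10 at 430, Cyp2a5 at 391 and Cyp2f2 at 330, as means over the 24 libraries. Cyp2e1, the pericentral enzyme that oxidizes ethanol and acetaminophen, gave between 24.4% and 43.6% of all member counts in a library. It had 4425 to 7829 CPM on the control diet (median 6445) and 2287 to 7115 on FFD (median 4889), with 5 FFD libraries below all controls. Its change on the log2 scale of -0.46 (SE 0.16, edgeR adjusted p = 0.0198) was not called over the 24 libraries. With a term for the set it was called lower at -0.51 (SE 0.14, adjusted p = 0.00363), and in the low-Xist set it was called lower at -0.83 (SE 0.20, adjusted p = 0.00503). The last call was lost when FFD replicate 7 or 10 or control replicate 9 or 12 was left out.

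Cyp2f2, a naphthalene-oxidizing enzyme known from periportal hepatocytes and lung club cells, showed opposite signs in the sets. Within the low-Xist set it had 963 to 1307 CPM on the control diet (median 1051) and 347 to 856 on FFD (median 509). The diets did not overlap on the TMM scale, but did with library totals. The log2 fold change there was -0.99 (SE 0.19, edgeR adjusted p = 0.00117). With library totals in place of TMM this change was -0.57 and was not called. Within the high-Xist set it had 317 to 520 CPM on the control diet and 252 to 766 on FFD, and the change of 0.57 (SE 0.21, adjusted p = 0.0785) was not called. The interaction was -1.57 (SE 0.30, adjusted p = 0.00151). Cyp2a5, which oxidizes coumarin and nicotine, was not called in any of these fits, with 289 to 1542 CPM on the control diet, 220 to 1520 on FFD and a log2 fold change of -0.11 (SE 0.35).

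Summed over subfamilies, Cyp2c and Cyp2d were lower and Cyp3a higher on FFD in the low-Xist set, without overlap of the 6 and 6 libraries. The Cyp3a difference was that of Cyp3a11, since the other 6 members together had 361 to 549 CPM on the control diet and 339 to 446 on FFD. The 13 Cyp2c members together had 1490 to 2796 CPM on the control diet and 645 to 1061 on FFD in that set, and the 8 Cyp2d members had 3648 to 5634 and 1652 to 2422 CPM. The 7 Cyp3a members had 694 to 885 CPM on the control diet and 1969 to 3209 on FFD. Over the high-Xist libraries, the Cyp2c sum was 3288 to 5427 CPM on the control diet and 2782 to 3730 on FFD, with overlap. The Cyp3a sum was 1360 to 2997 and 2054 to 2820 there, also with overlap. The Cyp2d sum was 2175 to 2421 and 1654 to 2092, without overlap on the TMM scale. None of its members was called there, with a median log2 fold change of -0.23, and -0.13 with library totals in place of TMM. The Cyp3a sums leave out Cyp3a41a and Cyp3a41b, whose names fall outside the rule. In the high-Xist set Cyp3a41a had 1326 to 4138 CPM on the control diet and 168 to 995 on FFD. Cyp3a41b had 63.4 to 501 and 1.24 to 81.1 CPM there. In the low-Xist set Cyp3a41a had 1.63 to 4.07 and 10 to 20.2 CPM. All 48 members made up 1.28% to 2.18% of the counts of a control library and 1.16% to 2.2% of those of an FFD library. These sums carry no test.

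**Figure D3:**
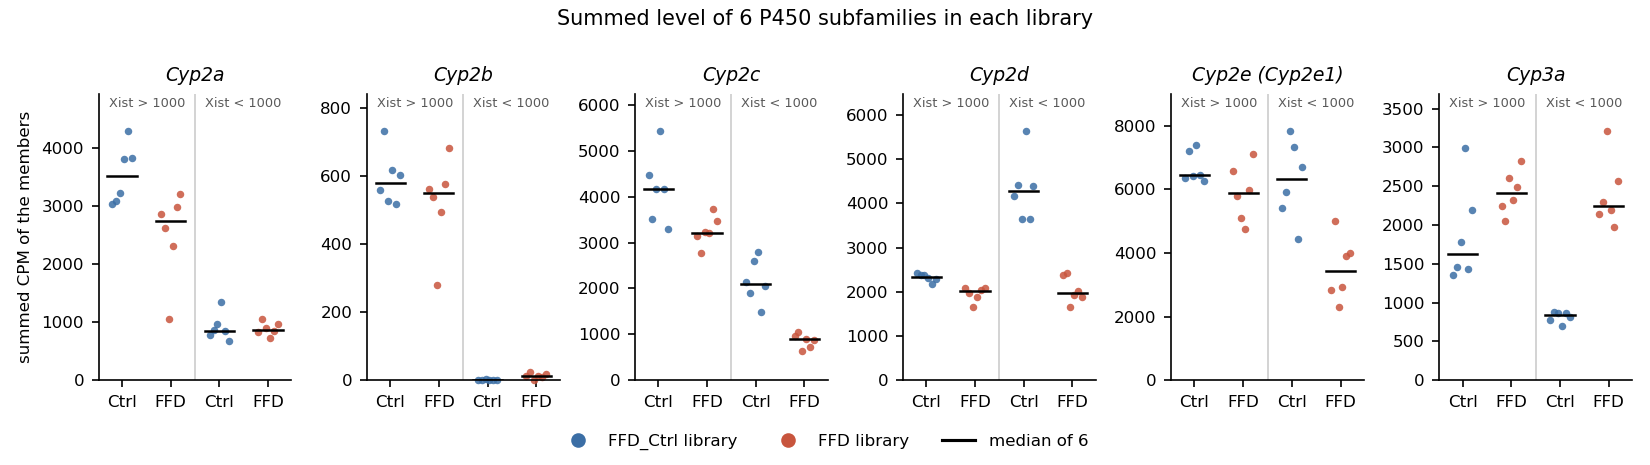
Summed CPM of the members of 6 subfamilies in each library (linear axes from 0), by diet and set, with bars at the median of 6 libraries. In the low-Xist set the Cyp2c and Cyp2d sums of all FFD libraries are below and the Cyp3a sums above those of the control libraries.

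Members of Cyp2c turn arachidonic acid and other fatty acids into signalling oxylipins and act on drugs. Over the low-Xist libraries, 9 of 13 were called lower and 1 higher, with a median log2 fold change of -1.42. For the high-Xist libraries, 3 were called lower and 2 higher, with a median of -0.12. Over the 24 libraries, 1 was called higher, Cyp2c55, and 1 lower, Cyp2c67. The latter had 203 to 476 CPM on the control diet (median 230) and 67 to 192 on FFD (median 145). Its libraries did not overlap between the diets on the TMM scale, but did with library totals. Its log2 fold change was -0.93 (SE 0.17, edgeR adjusted p = 0.000137). It was -1.42 (SE 0.22, adjusted p = 0.00019) in the low-Xist set and -0.51 (SE 0.14, adjusted p = 0.0242, not called) in the high-Xist set. The interaction of Cyp2c67 was not called.

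Cyp2c50 moved in opposite directions in the sets. In the high-Xist set it had 146 to 241 CPM on the control diet (median 189) and 345 to 572 on FFD (median 404), a log2 fold change of 1.14 (SE 0.15, edgeR adjusted p = 0.000333). For the low-Xist libraries it had 294 to 482 CPM on the control diet (median 377) and 30.5 to 177 on FFD (median 107), a change of -1.72 (SE 0.32, adjusted p = 0.000673). Neither set had overlap between the diets. The interaction was -2.87 (SE 0.37, adjusted p = 3.51e-05).

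Its relative Cyp2c54 had the largest fall of the members called in the low-Xist set. It went from 69.2 to 154 CPM on the control diet (median 98.9) to 3.93 to 16.5 on FFD (median 8.11), without overlap. Its log2 fold change was -3.47 (SE 0.38, edgeR adjusted p = 1.05e-05). Among the high-Xist libraries it had 19.1 to 59.2 CPM on the control diet and 29.6 to 128 on FFD, and the change of 0.80 (SE 0.36, adjusted p = 0.148) was not called. The interaction was -4.28 (SE 0.56, adjusted p = 4.95e-05).

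Cyp2c29, an arachidonic acid epoxygenase, and Cyp2c37 fell in the low-Xist set. Cyp2c29 had 250 to 550 CPM on the control diet (median 364) and 77.7 to 212 on FFD (median 137) there, and its log2 fold change was -1.42 (SE 0.23, edgeR adjusted p = 0.000276) against 0.03 (SE 0.10) in the other set. Cyp2c37 had 99.5 to 179 CPM on the control diet (median 116) and 7.52 to 64.8 on FFD (median 28.5), and its change was -1.99 (SE 0.36, adjusted p = 0.000625) against -0.18 (SE 0.17). The diets did not overlap for either gene in that set. The interactions were -1.45 (SE 0.26, adjusted p = 0.000947) for Cyp2c29 and -1.81 (SE 0.41, adjusted p = 0.00598) for Cyp2c37.

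Cyp2c40, Cyp2c68 and Cyp2c69, which share much of their transcript sequence, were lower on FFD in the high-Xist set. Cyp2c40 had 386 to 794 CPM on the control diet (median 616) and 136 to 366 on FFD (median 222) there, a log2 fold change of -1.33 (SE 0.22, edgeR adjusted p = 0.00161). Cyp2c69 had 280 to 1119 CPM on the control diet (median 643) and 78.9 to 291 on FFD (median 209), a change of -1.73 (SE 0.33, adjusted p = 0.0036). Cyp2c68 had 435 to 729 CPM on the control diet (median 513) and 257 to 366 on FFD (median 339), a change of -0.70 (SE 0.13, adjusted p = 0.00345). The diets overlapped for Cyp2c69 and not for the other two, and the calls of Cyp2c68 and Cyp2c69 were lost without FFD replicate 4. In the low-Xist set, Cyp2c40 had 11 to 53 counts on the control diet and 2 to 14 on FFD and was called lower (-2.20, SE 0.46, adjusted p = 0.00175), while Cyp2c69 had at most 14 counts in any library and was not called. Cyp2c68 was also called lower there (-1.10, SE 0.28, adjusted p = 0.00648), a call lost without any of FFD replicates 7 to 11 or control replicate 9.

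Cyp2c70, which makes the muricholic acids of mouse bile, was called lower in the low-Xist set, at -1.29 (SE 0.29, edgeR adjusted p = 0.00294). There it had 201 to 764 CPM on the control diet (median 504) and 176 to 232 on FFD (median 199), with 3 FFD libraries below all controls. Within the high-Xist set the ranges were 365 to 678 and 389 to 599 CPM and the change of -0.12 (SE 0.14) was not called. Cyp2c23, an arachidonic acid epoxygenase, was called lower in the low-Xist set at -0.66 (SE 0.16, adjusted p = 0.00572), a call lost when any of 9 of the 12 libraries was left out (FFD replicates 7, 8 and 10 to 12, control replicates 7, 8, 9 and 12). Cyp2c38 and Cyp2c39, the latter a retinoic acid hydroxylase, were called in neither set, with log2 fold changes of 0.93 (SE 0.54) and 0.54 (SE 0.55) in the low-Xist set.

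Cyp2d genes are the mouse relatives of the human drug-oxidizing CYP2D enzyme. Over the 24 libraries 3 of 8 were called lower and none higher. Cyp2d10 had 672 to 1621 CPM on the control diet (median 831) and 439 to 656 on FFD (median 562). The diets did not overlap on the TMM scale, but did with library totals. Its log2 fold change was -0.70 (SE 0.12, edgeR adjusted p = 7.05e-05). It was -1.02 (SE 0.16, adjusted p = 0.000224) in the low-Xist set and -0.32 (SE 0.10, adjusted p = 0.0477, not called) in the high-Xist set. The interaction of Cyp2d10 was not called. With library totals in place of TMM, its change over the 24 libraries was -0.38 and was not called. Cyp2d40 had 60.4 to 292 CPM on the control diet (median 104) and 19.7 to 83 on FFD (median 62.7), with 6 FFD libraries below all controls and a change of -0.97 (SE 0.23, adjusted p = 0.00152). Its change was -1.69 (SE 0.30) in the low-Xist set and -0.20 (SE 0.16) in the high-Xist set, with an interaction of -1.50 (SE 0.35, adjusted p = 0.00763). Cyp2d11, at 0.398 to 2.83 CPM, was called lower at -0.80 (SE 0.21, adjusted p = 0.00434), and the call was lost without FFD replicate 12.

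Cyp2d9, a testosterone hydroxylase, is known as male-specific in mouse liver. Among the low-Xist libraries it had 1278 to 2295 CPM on the control diet (median 1906) and 433 to 901 on FFD (median 589). All 6 FFD libraries were below all 6 controls, and the log2 fold change was -1.54 (SE 0.20, edgeR adjusted p = 5.06e-05). Over the high-Xist libraries it had 15.1 to 32.1 CPM on the control diet (median 20.4) and 28.9 to 66.5 on FFD (median 33.3), and the change of 0.96 (SE 0.22, adjusted p = 0.0104) just missed the threshold. The interaction was -2.51 (SE 0.32, adjusted p = 3.51e-05). Cyp2d26, the member of the second highest level per kb of exon, fell by 0.57 on the log2 scale in the low-Xist set (SE 0.13, adjusted p = 0.00397). This call was lost without FFD replicate 9 or 11 or control replicate 8. Over the 24 libraries its log2 fold change of -0.41 was short of 0.5. Cyp2d22 was called lower in the low-Xist set (-0.62, SE 0.11, adjusted p = 0.000418), and Cyp2d12, at 0.692 to 3.77 CPM, was not called in any fit.

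Cyp2a4, Cyp2b9 and Cyp3a44, which are known to be made mostly in female mouse liver, were called lower on FFD in the high-Xist set and higher in the low-Xist set. On the control diet, Cyp2b13, Cyp2c40 and Cyp2c69 also had medians of 152, 616 and 643 CPM in the high-Xist set. Their medians in the low-Xist set were 0, 1.13 and 0.423 CPM. They did not share this pattern. Cyp2b13 was called higher in the low-Xist set only, Cyp2c40 lower in both sets and Cyp2c69 lower in the high-Xist set only. Cyp2a4, a steroid hydroxylase, had 1222 to 2319 CPM on the control diet (median 1352) and 233 to 865 on FFD (median 646) in the high-Xist set. On the log2 scale the change there was -1.31 (SE 0.24, edgeR adjusted p = 0.00333). Within the low-Xist set it had 0 to 13 counts per library on the control diet and 208 to 445 on FFD, that is, a median of 0.116 and 12.6 CPM. The diets overlapped in neither set. Over the 24 libraries, where both sets were pooled, the log2 fold changes of Cyp2a4 (-1.29), Cyp2b9 (-0.64) and Cyp3a44 (-1.21) were not called.

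The log2 fold change of Cyp2a4 in the low-Xist set was 5.82 (SE 0.46, edgeR adjusted p = 1.37e-06), and the interaction was 7.13 (SE 0.54, adjusted p = 5.84e-09), the smallest adjusted p of the 48 members. Its near copy Cyp2a5, with the promoter shown above, had a change of -0.10 in both sets (SE 0.26 and 0.25). Of the transcript windows of Cyp2a4, 35.2% occur in Cyp2a5, which had 220 to 752 CPM in the low-Xist set. Cyp2a22 had 0.46 to 7.87 CPM on the control diet (median 2.33) and 3.04 to 34.4 on FFD (median 23.6) in the low-Xist set, a change of 2.69 (SE 0.63, adjusted p = 0.00369) with 5 of 6 FFD libraries above all controls. Its interaction was 3.02 (SE 0.71, adjusted p = 0.00744). Cyp2a12, also a steroid hydroxylase, had 302 to 721 CPM over the 24 libraries and a log2 fold change of -0.04 (SE 0.13).

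The 3 Cyp2b genes, whose products oxidize steroids and barbiturates, were all called higher in the low-Xist set, at low counts. Cyp2b9 had 387 to 499 CPM on the control diet (median 407) and 155 to 299 on FFD (median 280) in the high-Xist set, without overlap, a log2 fold change of -0.68 (SE 0.14, edgeR adjusted p = 0.00582). Over the low-Xist libraries it had 0 to 41 counts per control library, while 5 FFD libraries had 158 to 392 counts and FFD replicate 9 had 0. The change there was 3.55 (SE 0.90, adjusted p = 0.00645), and the interaction was 4.21 (SE 0.84, adjusted p = 0.00207). Both within-set calls lay close to the threshold and were lost when certain single libraries were left out. In the high-Xist set these were FFD replicates 1, 2 and 4 and control replicates 1, 2, 3 and 5, and in the low-Xist set FFD replicates 7, 8 and 10 to 12 and control replicates 7, 8 and 12.

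Cyp2b13, whose promoter stretch differs from that of Cyp2b9 at 2 bases, had 109 to 219 CPM on the control diet (median 152) and 101 to 380 on FFD (median 265) in the high-Xist set, and its change of 0.66 (SE 0.26, edgeR adjusted p = 0.0975) was not called. For the low-Xist libraries it had 0 to 5 counts on the control diet and 2 to 31 on FFD and was called higher. Cyp2b10, the classic CAR target, had 0 to 0.825 CPM on the control diet (median 0.136) and 0.731 to 3.35 on FFD (median 2.36) in that set and was called higher at 2.69 (SE 0.63, adjusted p = 0.00402), a call lost without FFD replicate 10. For the high-Xist libraries Cyp2b10 had 2.02 to 22.1 CPM on the control diet and 3.12 to 23.1 on FFD, with no call.

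Cyp3a44 moved in opposite directions and had similar ranges in both sets on FFD. It had 93.6 to 436 CPM on the control diet (median 288) and 51.6 to 72.5 on FFD (median 61.2) in the high-Xist set, a log2 fold change of -2.14 (SE 0.27, edgeR adjusted p = 0.00027). In the low-Xist set it had 3.67 to 18.2 CPM on the control diet (median 10.7) and 50.7 to 82.6 on FFD (median 57), a change of 2.50 (SE 0.29, adjusted p = 1.77e-05). The diets overlapped in neither set, and the interaction was 4.63 (SE 0.43, adjusted p = 2.83e-07). Of the transcript windows of Cyp3a44, 25.6% occur in another gene, and Cyp3a41a shared the most of them, 11.1%. That gene, outside the rule because of its name's last letter, had 1326 to 4138 CPM on the control diet and 168 to 995 on FFD in the high-Xist set. In the low-Xist set it had 1.63 to 4.07 and 10 to 20.2 CPM, so it moved in the same directions as Cyp3a44.

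Cyp3a16, known as a fetal and female form, was the member with the largest fall in the high-Xist set, from 103 to 467 CPM on the control diet (median 241) to 1.87 to 41.6 on FFD (median 8.95). Its change on the log2 scale was -4.12 (SE 0.63, edgeR adjusted p = 0.000864), and no libraries overlapped. Among the low-Xist libraries it had 0 or 1 count per control library and 2 to 8 on FFD, and was not called. Cyp3a57 had 0 to 2 counts per control library and 3 to 15 on FFD in that set and was called higher, which rests on few counts. Cyp3a13, Cyp3a25 and Cyp3a59 were called in neither set, with log2 fold changes between -0.43 and 0.29.

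**Figure D4:**
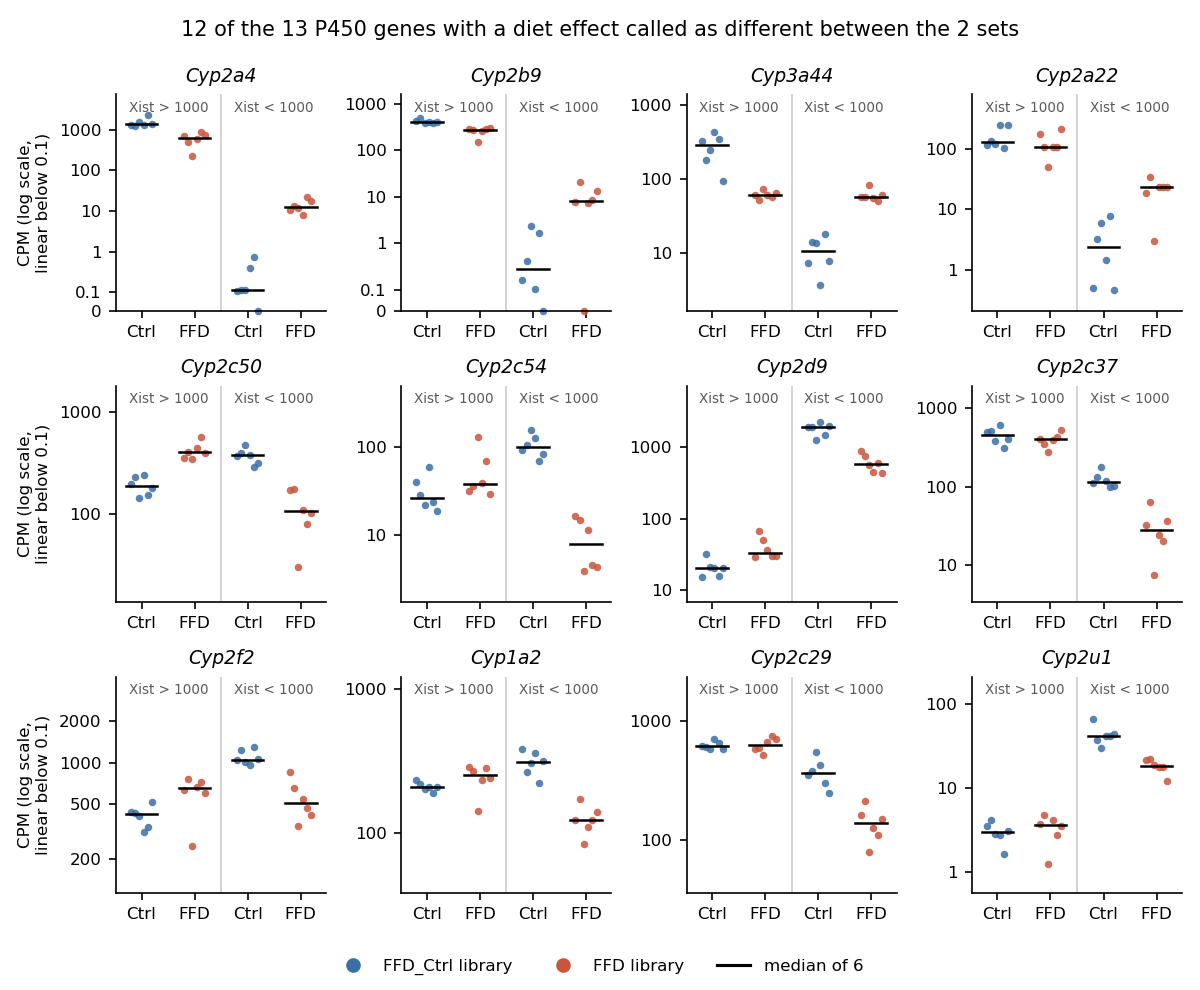
Level in CPM (log axis, linear below 0.1) of 12 of the 13 members with a called interaction, in each library, by diet and set, with bars at the median of 6 libraries. On FFD, Cyp3a44 sits between 50.7 and 82.6 CPM in both sets, and all low-Xist libraries lie below all high-Xist libraries for Cyp2c50 and Cyp2c54, which lie above them on the control diet.

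As a description of the 13 members with a called interaction, the ratio of the medians of the 2 sets was nearer to 1 on FFD than on the control diet for 6, namely Cyp2a4, Cyp2a22, Cyp2b9, Cyp2d9, Cyp2u1 and Cyp3a44. For Cyp2c50 and Cyp2c54 the order of the sets was turned round on FFD, with no overlap of the sets on either diet. The order of the medians also turned for Cyp1a2, Cyp2d40 and Cyp2f2, but their FFD libraries overlapped between the sets. For Cyp2f2 these were at 252 to 766 CPM in the high-Xist and 347 to 856 in the low-Xist set. On the control diet the sets overlapped as well for Cyp1a2 and Cyp2d40, and did not for Cyp2f2. For Cyp2c29 and Cyp2c37 the ratio was further from 1 on FFD. On the log2 scale, the ratio for Cyp2d9 (high-Xist over low-Xist set) went from -6.54 on the control diet to -4.15 on FFD, and that for Cyp3a44 from 4.75 to 0.10.

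Of the 7 remaining family 2 genes, 4 were called lower in the low-Xist set, namely Cyp2g1, Cyp2j5, Cyp2r1 and Cyp2u1. Cyp2r1, the vitamin D hydroxylase of the liver, had 6 to 14.4 CPM on the control diet (median 11.9) and 4.65 to 11.8 on FFD (median 6.79), a log2 fold change of -0.66 (SE 0.14, edgeR adjusted p = 0.000662). Within the low-Xist set its 6 FFD libraries were below all 6 controls (-1.03, SE 0.12, adjusted p = 2.17e-05), and in the high-Xist set they were not (-0.22, SE 0.19). Cyp2j9, an arachidonic acid epoxygenase, was called lower over the 24 libraries at -0.68 (SE 0.19, adjusted p = 0.00689), a call that was lost when any of 13 libraries was left out (FFD replicates 1 to 4, 7, 8, 9 and 11, control replicates 1, 2, 3, 7 and 12). Its relative Cyp2j5 was called lower in the low-Xist set (-0.82, SE 0.15, adjusted p = 0.000831), with 349 to 613 CPM on the control diet and 177 to 316 on FFD.

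Cyp2u1, a long-chain fatty acid hydroxylase, had 29.9 to 65.7 CPM on the control diet (median 41.8) and 12.2 to 22 on FFD (median 18.2) in the low-Xist set, and 1.64 to 4.11 and 1.23 to 4.72 CPM in the high-Xist set. The log2 fold change in the low-Xist set was -1.23 (SE 0.18, edgeR adjusted p = 0.00012) without overlap, and the interaction was -1.41 (SE 0.33, adjusted p = 0.00659). Cyp2g1, an enzyme of the nasal lining, was called lower in that set at 4 to 9 counts per FFD library against 8 to 18 on the control diet, a call lost without FFD replicate 10 or 11 or control replicate 8. Cyp2j6, at 39.8 to 93.3 CPM, changed by -0.43 (SE 0.09, adjusted p = 0.00277) in that set, short of the fold threshold. Cyp2t4 and Cyp2d34 reached no more than 7 and 8 counts in a library, and neither was called in any of these fits.

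Genes whose products serve the P450 enzymes or control them were read from lists beside the members. Of 6 genes of electron transfer, none was called over the 24 libraries, and Por, the reductase, had a log2 fold change of -0.24 (SE 0.21, edgeR adjusted p = 0.39). Only Cyb5b was called lower in the low-Xist set (-0.69, SE 0.17, adjusted p = 0.00495). Of 12 genes of heme synthesis and breakdown, Hmox1, the inducible heme oxygenase, was called higher (1.28, SE 0.15, adjusted p = 1.31e-06) and Cpox, an enzyme of heme synthesis, lower (-0.55, SE 0.14, adjusted p = 0.00215), while Alas1, the rate-limiting step, was not called (-0.34, SE 0.24). Hmox1 rose in both sets without overlap of the diets.

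Of 11 xenobiotic receptors and partners, none was called over the 24 libraries. Nr1i2 (PXR), the receptor upstream of Cyp3a11, had a log2 fold change of -0.14 (SE 0.10, edgeR adjusted p = 0.251), and Ahr had -0.33 (SE 0.17, adjusted p = 0.131). Nr1i3 (CAR), upstream of Cyp2b10, was called lower in the low-Xist set (-0.99, SE 0.19, adjusted p = 0.000886), as was Nr3c1, the glucocorticoid receptor (-0.55, SE 0.11, adjusted p = 0.00131). Of 12 hepatocyte transcription factors, Foxa3 (-0.59, SE 0.17, adjusted p = 0.00787) and Onecut1 (-1.41, SE 0.41, adjusted p = 0.00825) were called lower over the 24 libraries, and Hnf4a was not (-0.40, SE 0.12, adjusted p = 0.0126).

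Among 7 genes of growth hormone action and sex-biased transcription, Ghr, the growth hormone receptor, and Igf1, its main target in the liver, were called lower. Ghr changed by -0.66 (SE 0.12, edgeR adjusted p = 8.22e-05) over the 24 libraries, by -1.04 (SE 0.14) in the low-Xist set and by -0.29 (SE 0.10, not called) in the high-Xist set, and its interaction was called (-0.76, SE 0.18, adjusted p = 0.00676). Igf1 changed by -0.70 (SE 0.12, adjusted p = 8.46e-05). Stat5a, Stat5b, Bcl6, Cux2 and Socs2 were not called in any of these fits, with adjusted p of at least 0.143 within the sets.

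Most periportal genes other than P450 genes were lower on FFD. Of 9 periportal genes, 8 were called lower over the 24 libraries and none higher, with a median log2 fold change of -0.97. Cps1, of the urea cycle, changed by -0.99 (SE 0.20, edgeR adjusted p = 0.000376), while Hsd17b13 changed by 0.01 (SE 0.13). In the high-Xist set 1 periportal gene was called lower, Hal, and in the low-Xist set 7 were. Of 9 pericentral genes none was called over the 24 libraries and 4 were called lower in the low-Xist set, Oat, Slc1a2, Gulo and Rgn. The interaction was called for Oat (-1.85, SE 0.39, adjusted p = 0.00347), Slc1a2 (-1.36, SE 0.32) and Gulo (-0.80, SE 0.18), while Glul, glutamine synthetase, was called in none of these fits. Among 26 genes of other P450 families, 2 were called higher and 4 lower over the 24 libraries, and 2 higher and 10 lower in the low-Xist set.

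**Figure D5:**
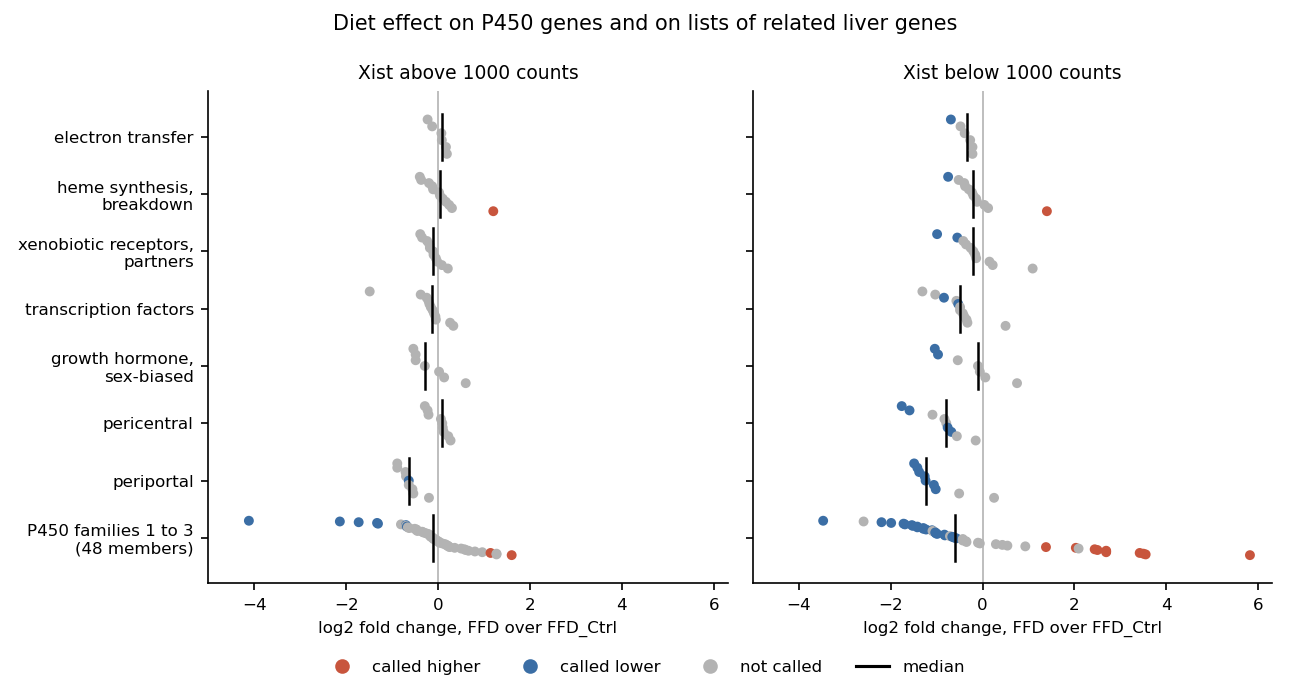
Log2 fold change (FFD over FFD_Ctrl) of each gene of 7 lists and of the 48 members, in the high-Xist (left) and low-Xist (right) sets, with bars at the median and colours for calls. Periportal genes lie at a median of -0.64 on the left and -1.24 on the right, and the members span the widest range in both panels.

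Hepatocyte markers were lower on FFD as well. Of 13, 8 were called lower over the 24 libraries and none higher, with a summed level of 111851 to 173309 CPM on the control diet and 62432 to 153916 on FFD. Over the low-Xist libraries the sums were 111851 to 132400 and 62432 to 79517 CPM, without overlap, and 9 were called lower, at a median log2 fold change of -0.95 against -0.60 for the members. In the high-Xist set 1 was called lower, with a median of -0.40, and the sums of 135887 to 173309 and 102052 to 153916 CPM overlapped. Of 5 endothelial markers 1 was called higher over the 24 libraries, and of 7 T and B cell markers none was (3 were in the low-Xist set), with sums of 113 to 247 and 118 to 294 CPM and of 2.65 to 11.5 and 3.57 to 10.4 CPM. No hepatocyte marker was at 0 in any library, and the part of any of these markers in the results on the members was not tested.

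The scaling of the libraries shifted all values. With library totals only, in place of TMM, the median log2 fold change of all genes rose from -0.03 to 0.26, and 94.4% of all calls were higher in place of 72.6%. Of the members, 4 were then called higher and 2 lower, Cyp2c67 and Cyp2d40. All 10 called members kept their direction. The median of the 48 members went from -0.40 to -0.16 over the 24 libraries and from -0.60 to -0.16 in the low-Xist set, and so stayed below that of all genes. With this common shift the subfamily medians of Cyp1a, Cyp2a, Cyp2b, Cyp2t and Cyp3a over the 24 libraries, -0.06 to -0.23 with TMM, came to lie above 0, at 0.03 to 0.22. For the low-Xist libraries, the median of all genes was 0.42 with totals, all 32 called members kept their direction and 23 were still called. The calls lost there were all of members lower on FFD. They were Cyp2c23, Cyp2c68, Cyp2c70, Cyp2d22, Cyp2d26, Cyp2e1, Cyp2f2, Cyp2g1 and Cyp2j5. In the high-Xist set, the median was 0.11, all 9 kept their direction and 8 were still called.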

How the data were processed

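Poly(A) RNA of whole livers was sequenced in 24 libraries. The authors deposited whole-number read counts per gene, not normalized, 1 column per library; the submitters' processing notes name bcl2fastq, STAR 2.7.3a and mm10, and the study's methods name a stranded TruSeq mRNA kit and, for reads aligned to the human genome, the exon quantification pipeline and PISCES. Which tool, strand setting and annotation gave the mouse counts is not given in the sources used here. Of 56205 Ensembl gene IDs, 51745 were paired with a symbol through GENCODE mouse release 21 names. Library totals were 14468418 to 22112552 counts, and replicates differed by more than counting noise (chi-square per degree of freedom at least 10.1).

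Groups came from the labels. Genes counted at least once in 12 or more libraries were fitted in R 4.3.3 with edgeR 4.0.16, whose quasi-likelihood test was run with diet as the only term and TMM as the scaling. Calls needed a log2 fold change beyond 0.5 and a Benjamini-Hochberg adjusted p no larger than 0.01, thresholds the study's methods used elsewhere. The same fit was made within each set, with the set as a covariate, and with an interaction, for which an adjusted p no larger than 0.01 sufficed. The SE of a log2 fold change was its size over the root of its F statistic. The high-Xist and low-Xist sets were cut at 1000 Xist counts. Labels mark each library as a separate sample, so p-values measure the spread between these libraries. Counts were simulated for all 17913 genes, with 100 genes changed 2-fold and 100 changed 4-fold, all with a mean of at least 10 counts. Of these the diet test recovered 79% and 96%, and the interaction test 28% and 69%. The simulation held no difference in level between the sets, and its spread came from the fit with diet only. The interaction shares may thus differ in the real fit.

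Alternatives were other scalings, filters, thresholds and tools (DESeq2 1.42.0, limma 3.58.1), the replicate number as a block, and leaving out each library. Fits without control replicate 10 and with totals inside the sets were added after seeing the data. The members, lists, markers and sets were chosen with earlier results of these data known. Values were given in full for the 5 members of highest level per kb, the called members, up to 12 members with a called interaction, and Cyp1a1, Cyp1a2, Cyp1b1, Cyp2e1, Cyp2f2 and Cyp3a11; other members were named by their role.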

Additional observations from a re-analysis of the deposited data

Results flagged for a closer look

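The effect of the diet differed between the sets of libraries for 13 members (edgeR interaction, adjusted p at most 0.01, values as the log2 fold change in the low-Xist set minus that in the high-Xist set). It was more positive in the low-Xist set for Cyp2a4 (7.13), Cyp3a44 (4.63), Cyp2b9 (4.21) and Cyp2a22 (3.02). It was more negative there for Cyp2c54 (-4.28), Cyp2c50 (-2.87), Cyp2d9 (-2.51), Cyp2c37 (-1.81), Cyp2f2 (-1.57), Cyp1a2 (-1.51), Cyp2d40 (-1.50), Cyp2c29 (-1.45) and Cyp2u1 (-1.41).

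When each of the 24 libraries was left out in turn, 9 of the 13 calls were kept every time. The call of Cyp2u1 was lost without any of 14 libraries (FFD replicates 1, 2, 4, 6 and 9 to 12, control replicates 3 to 7 and 12), and its value then lay between -1.58 and -1.25. That of Cyp2d40 was lost without any of 14 (FFD replicates 1 to 5 and 10 to 12, control replicates 1, 2, 5, 6, 7 and 12; -1.64 to -1.20). That of Cyp2a22 was lost without any of 12 (FFD replicates 2, 4, 5, 8 and 10 to 12, control replicates 4, 6, 7, 8 and 12; 2.78 to 3.50), and that of Cyp2c37 without any of 11 (FFD replicates 1, 4, 5, 6, 10 and 11, control replicates 3, 5, 6, 8 and 9; -2.15 to -1.60).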

How the results depend on the processing

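The 4 members called higher were 1 with at least 10 counts in every library, a filter that removed Cyp1b1, Cyp2c55 and Cyp2s1 before testing. The count was 2 within the high-Xist set and 11 within the low-Xist set (11 without control replicate 10, 12 with totals only). With any library left out it was 3 to 4. The 6 called lower were 2 with totals only, 15 with the set as a covariate (13 without control replicate 10), 21 within the low-Xist set (21 without control replicate 10, 12 with totals), 13 with no fold threshold and an adjusted p limit of 0.05, and 5 to 8 with any library left out. With edgeR and an absolute log2 fold change over 1 it was 0. The 13 interaction calls were 21 with DESeq2, 24 with an adjusted p limit of 0.05, and 9 to 17 with any library left out. Over all genes, totals gave 3827 calls higher and 226 lower, against 2372 and 894. For the other thresholds, filters and tools, the replicate block and the left-out libraries, shares over all genes were not taken. Those counts of members thus have no background beside them. Apart from the filter of at least 10 counts, the cause of these differences was not tested.

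Signs turned against the fit over 24 libraries, where at least 1 of the values was called, within the low-Xist set for Cyp2a4 (5.82, without control replicate 10 5.96, with totals 6.25), Cyp2a22 (2.69, 2.56 and 3.05), Cyp2b9 (3.55, 3.38 and 3.91), Cyp2b10 (2.69, with totals 3.09) and Cyp3a44 (2.50, 2.33 and 2.90), and within the high-Xist set for Cyp2c50 (1.14, with totals 1.24) and Cyp2d9 (1.06 with totals).

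With the replicate number as a block, 3 members were called higher and 10 lower, and 10 interactions were called. Same-numbered libraries deviated together with correlations of -0.0935 to 0.541, and of -0.257 to 0.276 within the sets, and libraries were therefore not treated as pairs.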
